A study of Mus musculus with 3 samples.

Results

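The genes described here encode lysosomal proteins of the mouse: 8 cysteine proteases (cathepsins and legumain), 3 other peptidases, 6 genes for glycosidases or lysozyme, 3 proteins that handle lipids, 5 genes for membrane proteins or progranulin, and 9 subunits or accessory proteins of the vacuolar H+-ATPase (V-ATPase). They were taken by name, 34 of the 55536 annotated genes, and all 34 were found. RNA bound to chromatin was measured in macrophages grown from C57BL/6J bone marrow that had received lipid A, the TLR4-binding part of lipopolysaccharide, at 100 ng/ml for 90 minutes. The series used here has 1 such group with 3 biological replicates under the same donor label, made from 1 µg (replicate 1), 250 ng (replicate 2) and 500 ng (replicate 3) of RNA after removal of ribosomal RNA. Cells without lipid A were not analysed here, so every value is a level after treatment, and p-values measure only the spread between these 3 libraries.

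Lysosomes are the degradative compartment of the cell. The V-ATPase pumps protons into them, with a membrane sector (V0) that carries the protons and a cytosolic sector (V1) that hydrolyses ATP, and the acidity lets cathepsins mature and work. Macrophages rely on lysosomes to destroy what they engulf and to process antigen. Many lysosomal genes carry the CLEAR element, a palindromic E-box bound by TFEB and its relatives TFE3 and MITF.

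Promoter sequences were looked at first. The genes were chosen by name, but the CLEAR core was searched because lysosomal genes are known to carry it. Its share among these genes is therefore a description and gives no independent support. RefSeq promoters of 300 bases, 250 before and 50 after the start of a gene on GRCm38.p6, were present for 28 of the 34 genes. The table holds no entry for Atp6v1h, Atp6v1b2, Ctsh, Asah1, Ctsb and Atp6v0d2. Searched on both strands, the CLEAR core TCACGTGA stood in the promoters of 6 of the 28 genes (21.4%), against 304 of all 27025 genes in the table (1.12%) and 204 of the 8812 genes in it that were expressed in these libraries (2.32%). The shorter E-box CACGTG, which lies inside every CLEAR core, stood in 11 of 28 promoters (39.3%), against 8.09% of all and 11.9% of expressed genes. The letters GAGGAAGT, of the type that the myeloid factor PU.1 binds, stood in 4 of 28 (14.3%), against 3.69% of all and 4.01% of expressed genes. These are matches of letters, and binding was not measured.

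The 6 genes with a CLEAR core span the classes: 2 peptidases (Ctsa and Ctsd), 1 glycosidase (Gla), 1 ion channel (Mcoln1) and 2 V-ATPase subunits (Atp6v0d1 and Atp6v1a). Their windows are printed 5′ to 3′ on the strand of the gene, from RefSeq GRCm38.p6, with the CLEAR core in capitals, because they are the sequence feature these genes share.
Ctsa, chr2:164833749-164833778, plus strand: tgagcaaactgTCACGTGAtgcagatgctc
Ctsa, second match, chr2:164833766-164833795, plus strand: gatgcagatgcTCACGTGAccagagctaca
Ctsd, chr7:142387908-142387937, minus strand: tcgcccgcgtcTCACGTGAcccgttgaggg
Mcoln1, chr8:3500462-3500491, plus strand: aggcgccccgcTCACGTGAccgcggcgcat
Atp6v1a, chr16:44139373-44139402, minus strand: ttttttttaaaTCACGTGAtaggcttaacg
Atp6v0d1, chr8:105566050-105566079, minus strand: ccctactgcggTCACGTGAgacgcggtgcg
Gla, with both of its matches, chrX:134601177-134601249, minus strand: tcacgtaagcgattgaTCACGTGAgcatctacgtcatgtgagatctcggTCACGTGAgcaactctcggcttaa
In Ctsa the cores lie on either side of the start site, in Atp6v0d1 the core begins 4 bases before it, and in Gla the cores begin 228 and 195 bases before it.

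Lamp1 had no CLEAR core but 4 E-boxes within the last 77 bases before its start site, the most in any promoter of the 28 genes. The stretch is printed with the E-boxes in capitals.
Lamp1, chr8:13159084-13159160, plus strand: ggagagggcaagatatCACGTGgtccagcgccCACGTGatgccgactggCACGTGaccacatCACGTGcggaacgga
The other promoters with an E-box but no CLEAR core were those of Ctsl, Gaa, Glb1 and Lgmn. Ctsd and Mcoln1 each had an E-box besides the one inside their CLEAR core. The 4 genes with the PU.1-type letters were Ctsc, Ctss, Gla and Gusb. For Ctsc, the cysteine cathepsin with the highest level, and Ctss, the windows are given with those letters in capitals, on the strand of the gene, where they read as the reverse complement.
Ctsc, chr7:88277923-88277952, plus strand: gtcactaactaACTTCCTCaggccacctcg
Ctss, chr3:95526773-95526802, plus strand: aatgaaagttcACTTCCTCattgtggatgc
In Ctss the match begins 2 bases before the start site.

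Levels were taken from TPM, a read share corrected for transcript length, in the authors' alignment-based gene tables. The level of a gene is log2(TPM + 1) minus the same value for the median expressed protein-coding gene of its library, at 5.5, 3.7 and 4.93 TPM in replicates 1 to 3. A gene was called above or below where limma's treat test placed its level beyond 1 log2 unit at an adjusted p of 0.05 over the 13434 genes with a mean count of at least 10. The libraries held 11277198, 24965749 and 19794886 expected counts, 7715311, 10036048 and 9964310 of them in protein-coding genes. All 10 macrophage markers were expressed, 7 of them called above, with summed TPM of 1245, 725 and 958. Each of the 8 marker lists of other cell types summed to 13.1 TPM or less in every library of these tables. The 8 neutrophil markers summed to 0, 1.51 and 0.48 TPM, with Elane, Mpo, Ly6g and Retnlg listed at 0. In the alignment-free tables Mpo had 1.38, 0.283 and 0.358 TPM. Pecam1, of the stromal and endothelial list, had 8.88, 2.29 and 4.38 TPM there, against 0.21, 0.22 and 0.08 TPM in the alignment-based ones.

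Most of the genes chosen here stood well above the typical expressed gene in chromatin RNA. They were chosen with earlier results of these data known, so the counts describe these genes and give no independent support. They do not stand for lysosomal genes in general, of which a further list is given below. Of the 33 that passed the count minimum, 21 were called above and 0 below, with a median level of 2.33, against 21.3% of all tested genes above, 21.3% below and a median level of -0.21 over all tested genes. Among the 10530 tested protein-coding genes, on whose median the levels are centred, 24.1% were called above and 2056 were called below. The 21 are 63.6% of the 33, and 30 of the 33 had a level over 0. At an unadjusted p under 0.05 the same test also placed 0 below, and on TMM-scaled counts per kilobase in place of TPM it called 1 below, Glb1. The number called above was 14 of 31 with a minimum count of 100 and 29 of 34 with no minimum. The share of all tested genes called at those minimums is not given here, so these counts cannot be set beside the 21.3%. In each library the median of these genes exceeded 85.9%, 86.4% and 85.3% of expressed protein-coding genes. Together they held 0.745%, 0.902% and 0.776% of protein-coding TPM, and the 4 highest genes (Ctsc, Ctsb, Psap and Grn) made up 41.6%, 42.5% and 39.3% of that.

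**Figure D1:**
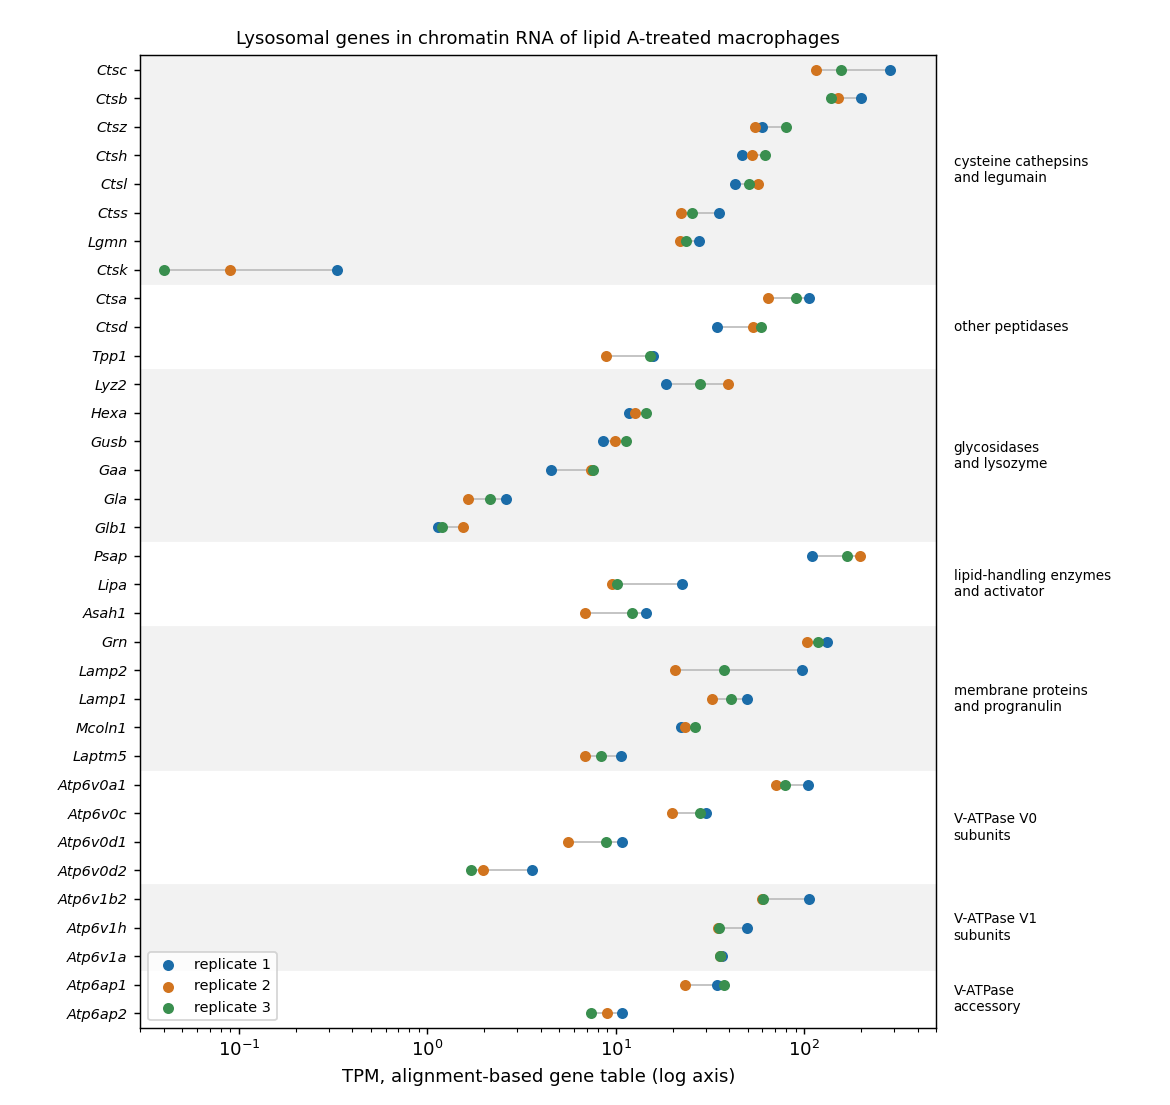
TPM on a log axis for the 34 genes in each of 3 libraries (coloured points; the grey line joins the lowest and the highest), grouped by role. Ctsc, Ctsb, Psap and Grn stand highest, each above 100 TPM in every library, and Ctsk lies below 1 TPM in every library.

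The cysteine cathepsins led. Among the 7 tested genes of this class, legumain included, 7 were called above, with a median level of 3.27. Ctsc, dipeptidyl peptidase I, which activates granule serine proteases, measured 283.35, 115.09 and 157.14 TPM across the replicates, which gave a level of 4.94 ± 0.45 (SD, n = 3; limma adjusted p = 1.95e-05). Replicate 1 lay highest and the others close together. Ctsb, which encodes cathepsin B, a broad endopeptidase and exopeptidase, had 199.84, 151.59 and 138.52 TPM and a level of 4.84 ± 0.25 (SD, n = 3; limma adjusted p = 1.12e-05). Both genes were higher than at least 98% of expressed protein-coding genes in every library. Ctsz, a carboxypeptidase, averaged 64.7 ± 13.2 TPM, Ctsh, an aminopeptidase, 53.8 ± 7.36 TPM, and Ctsl, an endopeptidase, 50.2 ± 6.87 TPM (SD, n = 3 each). Neighbours in that order differed by less than the SD of Ctsz between libraries.

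Ctss, whose product degrades the invariant chain of MHC class II, had 35.25, 22.2 and 25.31 TPM, a level of 2.31 ± 0.17 (SD, n = 3). Lgmn, the asparaginyl endopeptidase legumain, which matures several cathepsins, was the lowest of the called genes of the class, with 27.46, 22.01 and 23.49 TPM. Ctsk, the collagen-degrading cathepsin of osteoclasts, was the exception, with 6, 3 and 1 expected counts and 0.33, 0.09 and 0.04 TPM. It missed the count minimum, so it has no test, and on the log2(TPM + 1) scale it differed by -4.61 ± 0.18 (SD over 3 libraries) from Ctss, its neighbour on chromosome 3. The osteoclast markers Calcr, Ocstamp, Oscar and Mmp9 were at 0.05 TPM or less in each library by the alignment-based tables, where the 8 osteoclast markers summed to 13.1, 10.4 and 11.8 TPM, most of it Nfatc1. In the alignment-free tables Ocstamp had 6.86, 1.84 and 2.48 TPM, and Ctsk 0.875, 0.109 and 0.0923 TPM.

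Of the peptidases of other catalytic types, 2 of 3 were called above. Ctsa, a serine carboxypeptidase that also protects beta-galactosidase, had 105.48, 64.3 and 89.86 TPM, a level of 3.92 ± 0.12 (SD, n = 3). Ctsd, the main aspartic protease of lysosomes, had 34.22, 53.41 and 59.25 TPM, a level of 3.11 ± 0.59, with replicate 1 lowest. Tpp1, a tripeptidyl peptidase, had 15.76, 8.92 and 15.11 TPM and was not called (level 1.30 ± 0.19, limma adjusted p = 0.129).

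Of the 6 glycosidase and lysozyme genes 1 was called above (16.7%), a share close to the 21.3% of all tested genes, and the median level was 0.66, against -0.21 over all tested genes. That one was Lyz2, the macrophage lysozyme, with 18.51, 39.4 and 27.94 TPM and a level of 2.33 ± 0.76 (SD, n = 3; limma adjusted p = 0.00569). Replicate 2 was highest and replicate 1 lowest, and in the authors' alignment-free tables the level was 1.36 and the call was lost (limma adjusted p = 0.223). Hexa, the alpha chain of beta-hexosaminidase, had 11.73, 12.61 and 14.38 TPM, and Gusb, beta-glucuronidase, averaged 9.91 ± 1.4 TPM. Gaa, acid alpha-glucosidase, had 4.54, 7.35 and 7.58 TPM, a level of 0.38 ± 0.55. These sit near or somewhat above the median expressed gene.

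Gla, alpha-galactosidase A, had 2.6, 1.64 and 2.15 TPM, a level of -0.87 ± 0.04. Glb1, beta-galactosidase, was the lowest tested gene of the 33, with 1.14, 1.55 and 1.19 TPM and a level of -1.31 ± 0.38 (limma adjusted p = 0.169). It was called below with a pseudocount of 0.1 (level -1.78), with counts per kilobase (-1.84) and in the alignment-free tables (-1.58). Lyz1, the second lysozyme gene of the mouse, had 0.07, 0.04 and 0.05 TPM.

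Among the genes for lipid handling, Psap stood apart. Psap encodes prosaposin, the precursor of the saposins that present sphingolipids to their hydrolases. It had 110.18, 197.04 and 168.45 TPM, a level of 4.78 ± 0.65 (SD, n = 3; limma adjusted p = 5.13e-05), with replicate 1 lowest. Lipa, lysosomal acid lipase, had 22.5, 9.58 and 10.14 TPM, with replicate 1 highest, and Asah1, acid ceramidase, had 14.46, 6.82 and 12.15 TPM. Neither was called (limma adjusted p = 0.203 for Lipa and 0.687 for Asah1).

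Of the membrane proteins and progranulin, 4 of 5 were called above. Grn, progranulin, a secreted precursor that lysosomes cleave to granulins, had 131.36, 103.87 and 118.32 TPM and a level of 4.39 ± 0.08 (SD, n = 3; limma adjusted p = 1.18e-05), which made it the steadiest of the 4 highest genes on this scale. Lamp2, a heavily glycosylated protein of the lysosomal membrane, had 96.92, 20.7 and 37.47 TPM, the widest range of level (1.71 log2 units) among the 33 genes. Its level was 2.94 ± 0.88 (limma adjusted p = 0.0019) and 2.46 without replicate 1. Lamp1, its close relative, averaged 41.1 ± 8.62 TPM with a level of 2.87 ± 0.08. The log2 difference of Lamp1 from Lamp2 was -0.95, 0.63 and 0.13 in replicates 1 to 3, so their order changed between libraries.

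Mcoln1, the calcium channel TRPML1, had 22.26, 23.42 and 26.27 TPM, a level of 2.14 ± 0.27. Laptm5, a lysosomal transmembrane protein of blood cells, had 10.59, 6.87 and 8.36 TPM and was not called (level 0.75 ± 0.09, limma adjusted p = 1).

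Subunits of the V-ATPase were uneven. Of the 9 genes, 6 were called above: 2 of 4 for V0, 3 of 3 for V1 and 1 of 2 for accessory proteins. Atp6v0a1, one of the a subunits that anchor the proton channel, had 104.36, 71 and 78.58 TPM, a level of 3.90 ± 0.14. Atp6v0c, the proteolipid of the rotating ring, had 30.11, 19.87 and 27.85 TPM, and its pseudogenes Atp6v0c-ps1 and Atp6v0c-ps2 were at 0 and 0.493 TPM. Atp6v0d1 had 10.8, 5.55 and 8.91 TPM, and Atp6v0d2, the alternative d subunit known from osteoclasts and macrophages, had 3.61, 1.97 and 1.7 TPM. Neither d subunit was called, and Atp6v0d2 was below Atp6v0d1 in each library (log2 difference -1.46 ± 0.38).

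In the V1 sector, Atp6v1b2, the B subunit found in most tissues, had 105.4, 59.33 and 60.09 TPM, a level of 3.69 ± 0.33. Atp6v1h, a regulatory subunit, had 49.8, 35.01 and 35.46 TPM, and Atp6v1a, the catalytic A subunit, had 36.71, 35.8 and 35.76 TPM. All 3 were called above. Of the accessory proteins, Atp6ap1 had 34.34, 23.24 and 37.57 TPM and was called above (level 2.50 ± 0.18), and Atp6ap2, the prorenin receptor, had 10.81, 8.95 and 7.37 TPM and was not.

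The other 16 V-ATPase genes, among them alternative subunits with narrow tissue ranges, were set beside these. Of the 16, 10 passed the count minimum, 4 were called above (Tcirg1, Atp6v0b, Atp6v1e1 and Atp6v1c1) and 0 below, with a median level of 0.88. The 4 are 40% of the 10. Over all tested genes 21.3% were above and 21.3% below, with a median level of -0.21. Tcirg1, the a3 subunit of osteoclasts and macrophages, had 520, 872.44 and 846.48 TPM, above every one of the 34 genes, and its log2 difference from Atp6v0a1 was 3.11 ± 0.70. Atp6v0b, a proteolipid subunit, had 199.46, 234.13 and 317.46 TPM, and Atp6v1e1, a V1 stalk subunit, averaged 51.3 TPM. The lowest tested were Atp6v1f at 2.62 TPM and Atp6v1g2 at 1.30 TPM. Atp6v1b1, the alternative B subunit, had 0.35, 0.11 and 0.03 TPM, and Atp6v0a4, Atp6v0e2, Atp6v1e2 and Atp6v1g3 were listed at 0 in the alignment-based tables. In the alignment-free tables Atp6v0e2 had 3, 0.816 and 2.69 TPM. Of the 10 tested, 0 passed an unadjusted p under 0.05 on the low side, and 1, Atp6v1g2, was called below on counts per kilobase. The others missed the count minimum and have no test here.

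**Figure D2:**
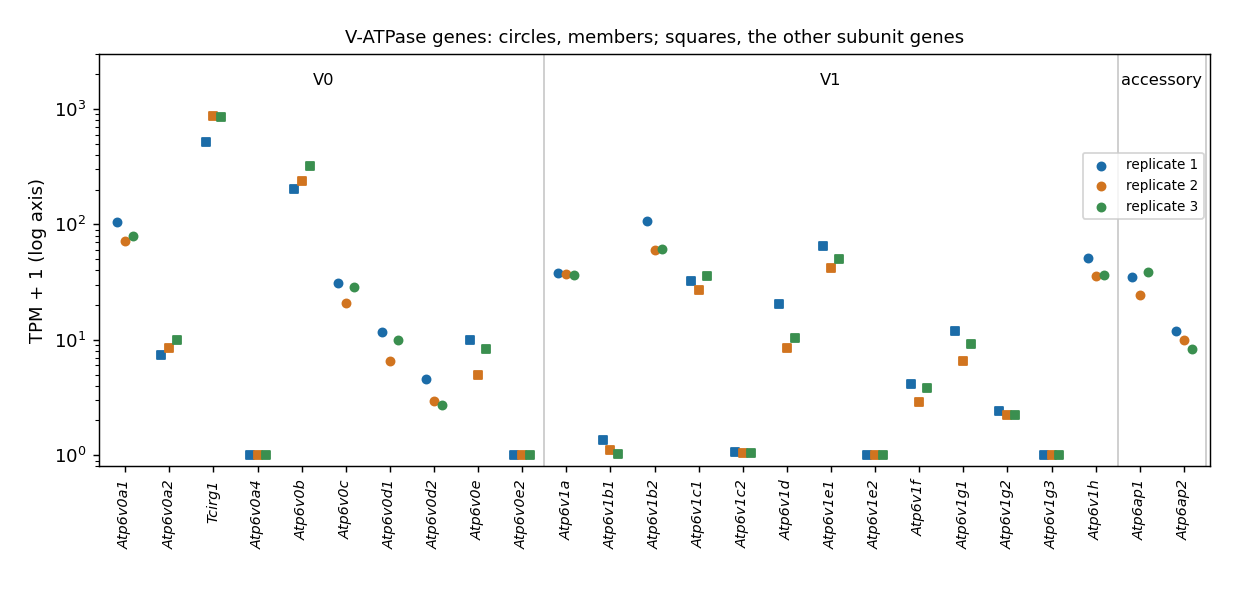
TPM + 1 on a log axis for the 25 V-ATPase genes in each library, with circles for the 9 genes described here and squares for the other 16. Tcirg1 (520 to 872.44 TPM) and Atp6v0b stand highest, and 4 genes lie at 0 in every library of the alignment-based tables plotted here.

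A further 66 lysosomal genes (other hydrolases, transporters, membrane proteins and sorting receptors) were set beside them in the same way. Of these, 55 were tested, 16 were called above (29.1%) and 7 below, against 21.3% above and 21.3% below over all tested genes, with a median level of 0.28, against -0.21. Among the highest were Cln3, a membrane protein mutated in Batten disease, at 465 TPM, and Clcn7, the chloride-proton exchanger, at 130 TPM. The lowest of the 55 tested were Sort1, the sorting receptor sortilin, at 0.277 TPM and Smpd1, acid sphingomyelinase, at 0.253 TPM. The cystatins, which inhibit cysteine cathepsins, were near or below the median expressed gene: 3 of 11 were tested, Cst7 at 3.58 TPM, Cstb at 3.50 TPM and Cst3 at 3.43 TPM, and limma's treat called 0, also at an unadjusted p under 0.05 and on counts per kilobase. The other 8 cystatins had 0 counts in every library of the alignment-based tables. Among these, Gm5483 had 9.25, 3.49 and 5.26 TPM in the alignment-free tables. The lists were described by the counts of genes called, and the difference between them was not tested.

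**Figure D3:**
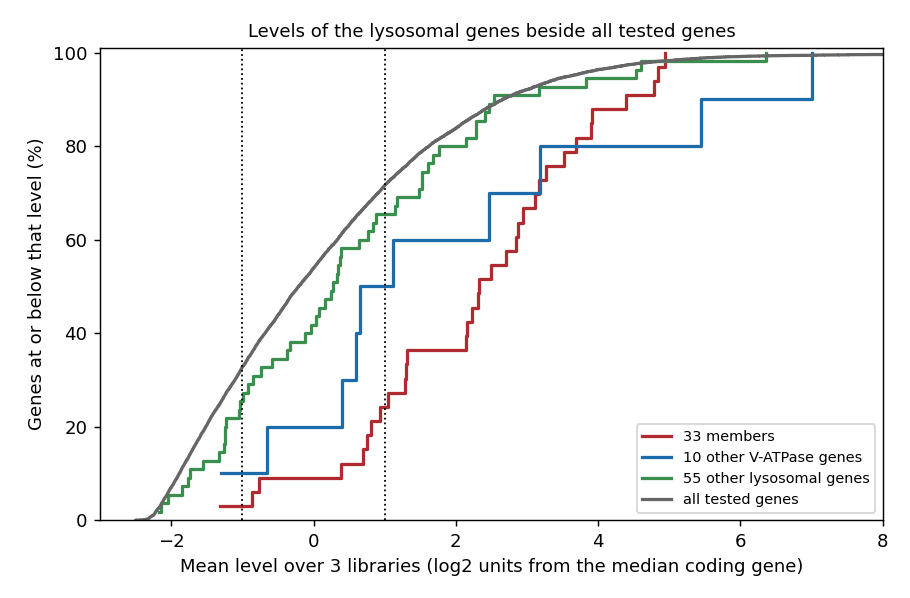
Cumulative share of genes (%) against mean level over 3 libraries, in log2 units from the median protein-coding gene, for the 33 tested genes, the other V-ATPase genes, the other lysosomal genes and all 13434 tested genes; dotted lines mark the bound of 1 log2 unit. The curve of the 33 genes lies to the right, with a median of 2.33, against -0.21 for all tested genes.

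Levels of genes with and without a CLEAR core overlapped. Of the 6 genes with it, 4 were called above (Ctsa, Ctsd, Mcoln1 and Atp6v1a), with a median level of 2.42 and a range from -0.87 (Gla) to 3.92 (Ctsa). Of the 21 tested genes with a promoter entry but without it, 13 were called above, with a median level of 2.31 and a range from -1.31 to 4.94. Lamp1, with the 4 E-boxes, had a level of 2.87. The other genes with an E-box but no CLEAR core had 3.17 (Ctsl), 2.16 (Lgmn), 0.38 (Gaa) and -1.31 (Glb1). The genes with the PU.1-type letters had levels of 4.94 (Ctsc), 2.31 (Ctss), 0.94 (Gusb) and -0.87 (Gla).

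Libraries differed more for some genes than for others. The SD of log2 CPM after TMM scaling had a median of 0.30 over the 33 genes and 0.36 over expressed protein-coding genes. For the 33 genes the median was 0.19 without replicate 1, where each SD rests on 2 libraries. The matching value for expressed protein-coding genes is not given here. The SD was largest for Lyz2 (4.18, 5.98 and 5.08 log2 CPM in replicates 1 to 3; SD 0.90), Gaa (2.78, 4.52 and 4.02; SD 0.90) and Ctsd (5.50, 7.07 and 6.77; SD 0.83). In all 3, replicate 1, made from the most RNA and with the fewest counts, was lowest. Psap, at 7.88, 9.46 and 8.82 log2 CPM, had the same order as Lyz2, and Lamp2, at 7.83, 6.40 and 6.88, the opposite one. Replicate 1 was lowest in 20 of 33 genes after TMM scaling and in 12 of 33 on the level scale, against 5323 and 4593 of 10530 expressed protein-coding genes. All 6 glycosidase and lysozyme genes were highest in replicate 2 on the level scale, and 5 of 6 after TMM scaling, where Gla was highest in replicate 1, against 40.9% and 38.3% of expressed protein-coding genes. For Gla the level in replicate 2 differed little from that in replicate 1 (-0.83 and -0.85). Amount of RNA, depth and replicate cannot be told apart.

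**Figure D4:**
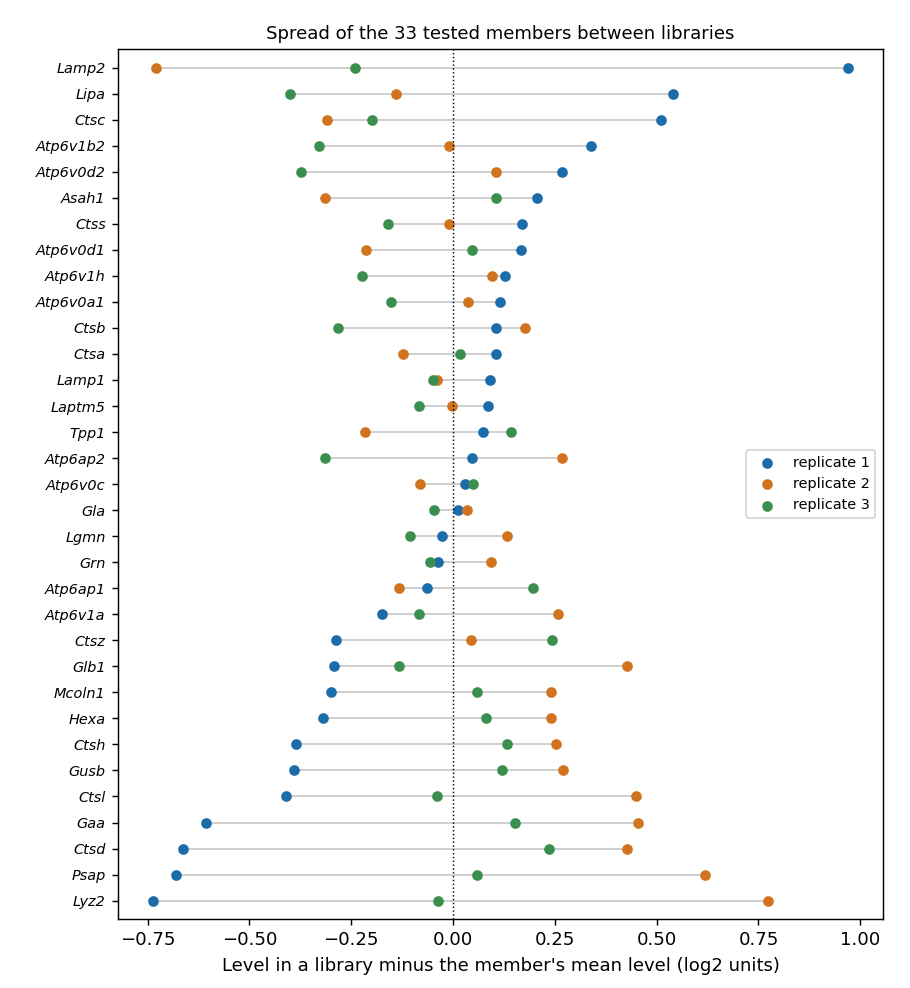
Level of each tested gene in a library minus its mean over the 3 libraries, in log2 units, ordered by replicate 1 against the others. Lamp2, Lipa and Ctsc stand highest in replicate 1, and Lyz2, Psap, Ctsd and Gaa lowest in it.

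For many of these genes much RNA was assigned to isoforms that keep an intron, as annotated in GENCODE M21. The same held for expressed protein-coding genes with such an isoform, by the medians given below. The 34 genes have 188 annotated isoforms, 55 of them typed as retained intron, in 21 genes. In 11 tested genes such isoforms held over 50% of the TPM of the gene on average, and in 8 by the alignment-free tables. The number of all protein-coding genes over 50% was not counted. The share was largest for Atp6v1b2, at 87.5%, 81.2% and 77.5% in replicates 1 to 3, and Ctsh, at 86.5%, 80.1% and 75.2%. Tpp1 had 84.8%, 72.9% and 71.3%, Ctsa 75%, 71.2% and 69.1%, and Ctsb 71.3%, 70% and 63.8%. In all 5 the share was highest in replicate 1, as in 17 of the 21 genes. This was not counted over all protein-coding genes with such an isoform, but their median share was also highest in replicate 1. The median over the 21 genes was 50.9%, 50.7% and 47.9%, against 51.5%, 41.8% and 40.6% over the protein-coding genes with such an isoform. At the low end Ctsd had 21.2%, 7.45% and 10.2%.

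In 22 of the 33 tested genes the isoform with the largest share was typed protein coding, and in 15 by the alignment-free tables. The leading isoform was the same in both kinds of table for 16. These counts were not made over all protein-coding genes, so they describe only the genes treated here. For Ctsb the leading isoform differed between the kinds of table. In the alignment-based tables Ctsb-203, a retained-intron entry of 1 exon, led with 67%, 37.3% and 43.7% of the TPM, and the coding Ctsb-201 held 28.7%, 30% and 36.2%. In the alignment-free tables another retained-intron entry, Ctsb-202, led with 46.1%, 58.3% and 59.1%. Atp6v0c-205, a processed transcript, led in both, with 70.3%, 68.1% and 71.6% of the TPM of Atp6v0c in the alignment-based tables. The levels of genes such as Ctsb and Atp6v0c are thus sums over RNA of which a large share is not typed as coding. For others, such as Psap, Ctss, Ctsz, Hexa and Lyz2, every annotated isoform is typed as coding. Their coding share of 100% is therefore fixed by the annotation and says nothing about the RNA.

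**Figure D5:**
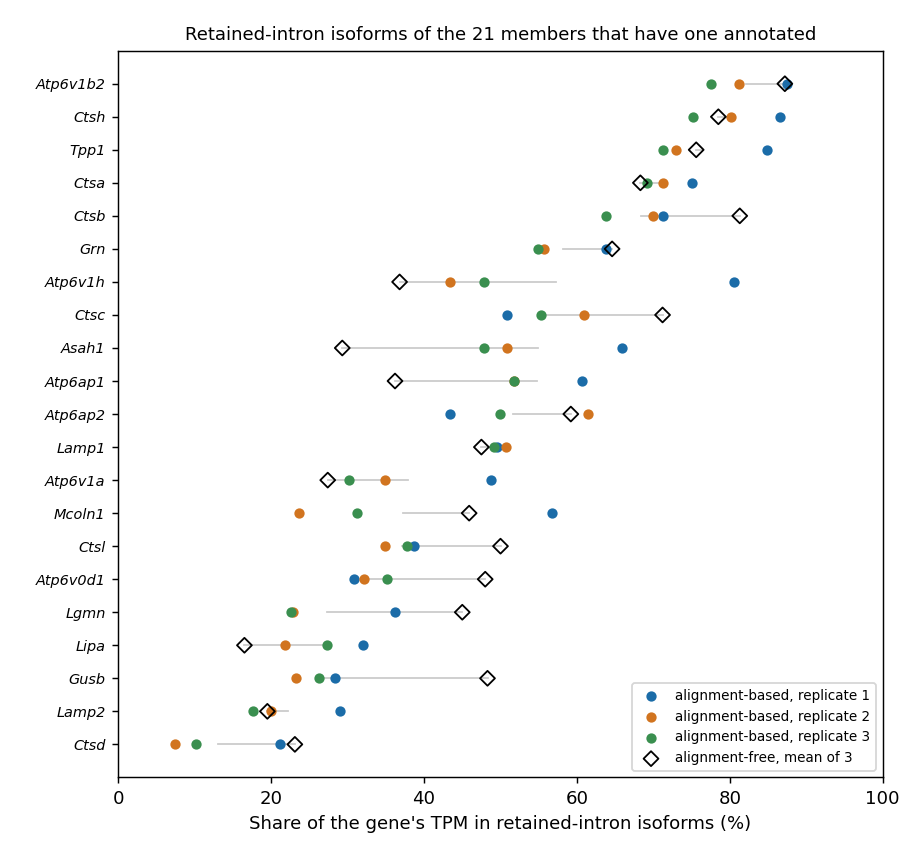
Share (%) of the TPM of a gene in retained-intron isoforms for the 21 genes that have one, in each library by the alignment-based tables (points) and on average by the alignment-free tables (diamonds). Shares run from 13% on average for Ctsd to 82.1% for Atp6v1b2, and the tables lie farthest apart for Asah1, Gusb and Atp6v1h.

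Quantifying the same reads without an alignment gave no called difference for these genes. Over 13427 genes, 0.633% were called higher in the alignment-based tables and 1.9% in the alignment-free ones by limma's treat test on the difference in level; of the 33 genes, 0 were called either way, each at an adjusted p of 1, and 0 passed at an unadjusted p under 0.05. The differences that were largest, picked after the values were seen, were those of Gla (-1.02), Lyz2 (0.97) and Ctsl (-0.95), alignment-based minus alignment-free. Ctsl had 42.97, 56.63 and 51.03 TPM in the alignment-based tables, against 175, 112 and 149 TPM in the alignment-free ones. The alignment-free values were higher in each library, where the median protein-coding gene was also higher, at 11.9, 4.15 and 7.63 TPM. Ctsl overlaps the antisense gene Gm47123 (1.86 TPM) and the pseudogene Gm49230 (0.28 TPM), and their part in the difference was not tested.

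Overlap with other genes limits some of these values, since the strand setting of the counting is not given in the sources used here. Of the 34 genes, 14 overlap another gene, 5 of them on the same strand. Ctsd lies over the same-strand gene Gm49369 (20.3 TPM) for 6757 bases, Ctss over the pseudogene Hmgb1-ps5 (36.5 TPM), and Glb1 over Tmppe (3.15 TPM). On the opposite strand, Ctsc overlaps the long noncoding RNA gene Gm26522 (41.7 TPM) and Ctsa overlaps Pltp (46.4 TPM). Reads in the shared parts cannot be assigned with certainty.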

How the data were processed

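Chromatin-fraction RNA-seq of 3 libraries of 1 group was analysed. Expected counts and TPM per gene and isoform were deposited by the authors from an alignment to the transcriptome (mm10, GENCODE M21, per the deposited description files; column names as RSEM writes, per the file headers). A second deposited table of estimated counts and TPM has the column names of kallisto and is called alignment-free. The deposited score column, a posterior SD of each count per the file headers, was read but not used in a test. The sources used here do not state the aligner, versions or strand setting. The authors scaled TPM over all entries of a file, so an abundant RNA moves all others, and introns outside annotated isoforms have no entry.

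The tests covered 13434 genes, 10530 of them protein-coding, whose expected counts averaged 10 or more. Levels used log2(TPM + 1), which understates differences between low genes; limma 3.58.1 (R 4.3.3) treat, intercept only, bound of 1, Benjamini-Hochberg over all genes. TMM factors (edgeR 4.0.16, prior count 2) and DESeq2 1.42.0 size factors used counts rounded to whole numbers. A count of 0 allows 3 counts: 0.266, 0.12 and 0.152 CPM in replicates 1 to 3, for counting error only. The scripts were tested on simulated data. Alternatives were other count minimums, pseudocounts, medians, tables and left-out libraries.

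Members and lists were chosen with earlier results of these data known. By rule, values per library are given for the 2 highest and 2 lowest genes of each class and the 3 with the largest SD, and from other lists the 3 highest and 2 lowest by TPM, except for a gene not reported here. Protein sequences were not used here.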

Additional observations from a re-analysis of the deposited data

How the results depend on the processing

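The number of the 33 genes called above ranged from 20 to 22 under all alternatives but the count minimum (29 with none, 14 with 100, where the median rises by construction). With a minimum of 100, Gaa (-0.69), Gusb (-0.13), Asah1 (-0.03), Laptm5 (-0.32), Atp6v0d1 (-0.38) and Atp6ap2 (-0.26) were below 0 and the calls of Ctss, Lamp2, Lgmn, Lyz2, Mcoln1, Atp6v0c and Atp6ap1 were lost; with none, Gla was at 0.08 and Atp6v0d2 at 0.18, and Gla was at 0.15 in the alignment-free tables. Genes called below numbered 1 with a minimum of 100 (Atp6v0d2), and 1 with a pseudocount of 0.1, alignment-free tables or counts per kilobase (Glb1). Other V-ATPase genes had 7 above and 1 below (Atp6v1c2) with no minimum, and 1 below (Atp6v1g2) with a pseudocount of 0.1 or counts per kilobase. Other lysosomal genes had 5 above with a minimum of 100; below, 2 with none, 1 with 100, 12 with a pseudocount of 0.1, 12 with counts per kilobase, and 4 to 7 over left-out libraries (4 without replicate 2 and 4 without replicate 3). Shares over all tested genes under the alternatives are not given here, so these counts show only how the lists moved. Where not stated, the cause was not tested. The median SD was 0.19 to 0.35 over left-out libraries. No paired analysis was possible because there is 1 group. Depth limits genes such as Ctsk, with 10 counts or fewer.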

Other observations

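Across the 33 tested genes, the level in replicate 1 minus that in replicate 2 had a Spearman correlation of 0.28 with the length of the gene, against 0.10 over 10530 expressed protein-coding genes. The points share their libraries, and genes are not independent replicates, so this is a description of these libraries.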
